A study of Homo sapiens with 6 samples.

Results

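The genes of mitosis and of the kinetochore, 52 in number, were followed in ONS-76 cells after knockdown of the histone demethylase KDM1A. They were chosen by name as genes of cell division, with earlier results of these data known. Each was represented by the brightest, on average over the 6 arrays, of the probe sets that name it alone. All 52 were measured, out of 19775 genes on the array, and 104 probe sets covered them. ONS-76, an established line of human medulloblastoma cells, was profiled on Affymetrix U133 Plus 2.0 arrays, of which 3 held RNA of cells transfected with an siRNA against KDM1A (siKDM1A) and 3 RNA of cells given the transfection reagent alone (control), each from an independent transfection. In the labels the target is written KDM5A next to LSD1, a synonym of KDM1A, and the time is 48 h after transfection. The study's methods name KDM1A, and its results give a later time for the arrays. Because the control cells received no siRNA, KDM1A loss, siRNA delivery and effects of the siRNA on other genes cannot be told apart here. This holds for every difference given, and all arrays come from 1 cell line.

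Dividing cells switch on a shared set of genes in the G2 and M phases of the cell cycle. CDK1 with its cyclins starts mitosis, condensin compacts the chromosomes, and the kinetochore, a protein assembly on each centromere, holds the microtubules of the spindle. The spindle checkpoint delays anaphase until every kinetochore is attached, after which the anaphase-promoting complex marks cyclin B and securin for destruction and the cell divides. Since these RNAs peak in dividing cells, fewer cells in mitosis and less RNA per cell cannot be told apart in RNA from whole cultures.

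KDM1A itself measured 6.25, 6.34 and 6.31 in siKDM1A cells and 9.50, 9.57 and 9.49 in control cells, in log2 units in which a difference of 1 is a 2-fold change. The fall of 89.3% (limma adjusted p = 7.1e-07) checked which arrays were siRNA and which control. It did not check the target name KDM5A in the labels, and the level of KDM5A is not given here. Medians of the arrays lay between 5.09 and 5.16. Of 12 medulloblastoma and neural markers, 8 lay above the array median on all 6 arrays, and ATOH1, OTX2, EOMES and SYP did not. Markers were read on their brightest probe sets, while the median is over all probe sets. The share of all genes above it is not given here, so such counts do not measure cell identity. Summed log2 levels of the 12 markers were 77.4 to 78.5 in siKDM1A cells and 77.5 to 78.8 in control cells, but single markers moved both ways. MAP2 rose by 1.12, and SOX2, ZIC2 and ZIC1 fell by 0.43, 0.40 and 0.39 (limma adjusted p from 0.0003 to 0.048). Of 8 measured markers of blood, vessel, epithelial, liver and myelin cells, 3 lay above the median (PECAM1, HBB and MBP), with sums of 41.1 to 42.1 in siKDM1A cells and 40.4 to 40.9 in control cells that did not overlap. Of these PECAM1, an endothelial marker, was called higher in siKDM1A cells (log2 fold change 0.35, limma adjusted p = 0.035). The part of these marker changes in the differences of the mitosis genes was not tested. The array siKDM1A c stood apart on a subset of probe sets. It lay more than 1 log2 unit below both other siKDM1A arrays on 220 probe sets, against 5 for siKDM1A a and 0 for siKDM1A b. None of the probe sets that represent the 52 genes was among the 220, but 3 dimmer ones were.

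Most of the mitosis genes were lower after KDM1A knockdown, and none was higher. In siKDM1A cells 38 of the 52 fell and 14 did not pass the test (limma, Benjamini-Hochberg adjusted p under 0.05 over 54613 probe sets). Over all genes, 5.46% were called lower and 3.45% higher by the same rule. The median log2 fold change (siKDM1A minus control) of the 52 was -0.60, which is 34.1% lower, beside 0.01 over all genes. All 52 differences were negative, from -0.98 for MKI67 and NDC80 to -0.18 for INCENP, beside 9558 of all 19775 genes with a negative difference. The falls were moderate: the 38 called genes were 25% to 49.4% lower, and none was lower by a factor of 2 on its brightest probe set. A dimmer probe set of ASPM was 53.8% lower (log2 fold change -1.11, limma adjusted p = 0.0102). Standard errors ran from 0.08 to 0.16. In 49 of the 52 genes every siKDM1A array lay below every control array, against 18.1% of all genes. The groups overlapped for CENPA, CDC25B and MAD2L1. By the methods' one-way ANOVA with the same adjustment 22 members were lower and 0 higher, beside 1.26% of all genes called lower. Without siKDM1A c, 40 were lower, beside 1563 of 54613 probe sets over the whole array (2037 with every array).

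**Figure D1:**
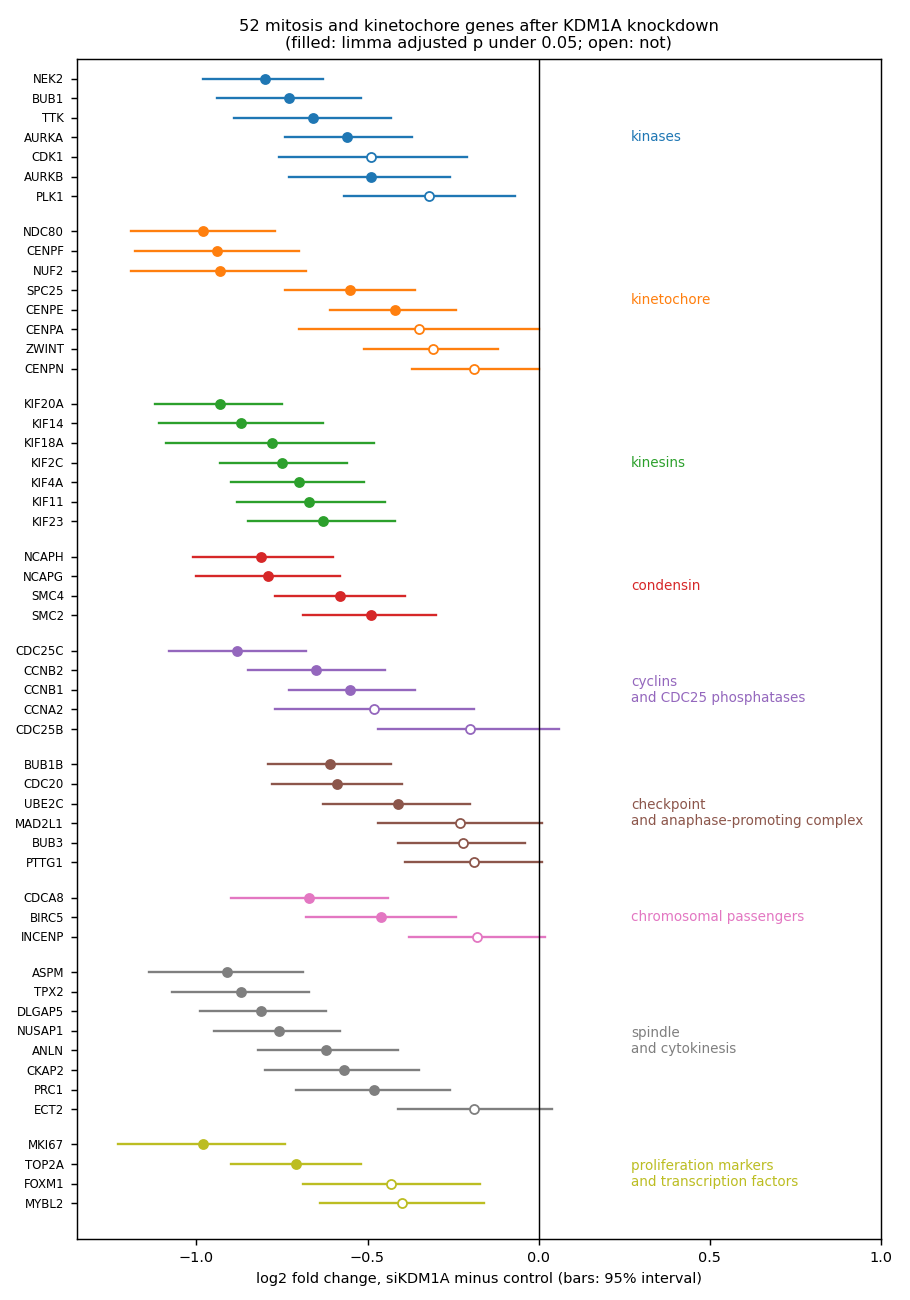
Log2 fold change of each of the 52 genes (siKDM1A minus control, x axis), grouped by role, with bars for the confidence interval of the limma fit and filled points for adjusted p under 0.05. All points lie left of 0, and the 7 kinesins and 4 condensin genes are all filled.

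The 3 siKDM1A arrays gave the same picture. Set against its own control mean, the middle member lay at -0.62 on siKDM1A a, at -0.55 on siKDM1A b and at -0.63 on siKDM1A c. The same measure was -0.01, 0 and 0 on the control arrays. Within the siKDM1A group the spread was uneven, as siKDM1A c held the lowest of the 3 values in 25 members and the highest in 18. The plot of members by array shows this as lines that fan out towards siKDM1A c, with NUF2 and KIF14 among the lower ends there and AURKB and PLK1 among the upper ones.

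**Figure D2:**
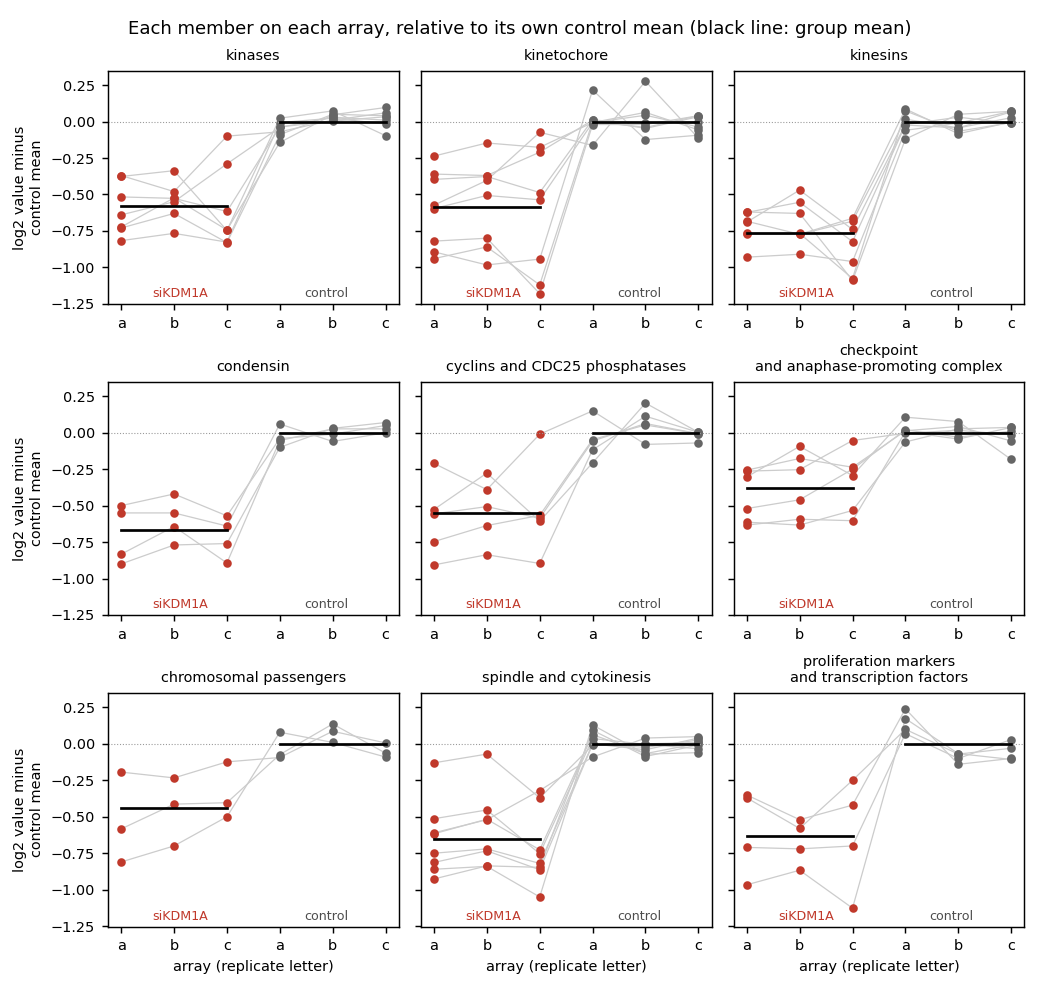
Log2 value of each gene on each array minus the mean of its 3 control arrays (y axis), with 1 panel per role, siKDM1A arrays a to c at the left (red), control arrays a to c at the right (grey), thin lines joining the values of a gene and black lines the group means. The kinesin and condensin panels have a clear gap between the groups. The checkpoint panel, without BUB1 and TTK, which are drawn with the kinases, has the smallest median fall, -0.32.

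Promoters of the genes with the largest falls are shown because many genes of this kind carry the cell cycle genes homology region (CHR), a site bound by the LIN54 subunit of the DREAM and MuvB complexes, often near CCAAT boxes bound by NF-Y. The 6 sequences run from 130 bases before to 50 after the first base of the gene in RefSeq on GRCh38.p14, 5′ to 3′ on the gene's strand. Capitals mark the CHR, searched as TTTGAA and, in another form, as TTTAAA, and the CCAAT box. Matches on the other strand are in capitals too, so that a CHR may read TTCAAA and a box of NF-Y may read ATTGG. In MKI67 the second CHR and a CCAAT box on the other strand overlap by 1 base. MKI67 lies at chr10:128126374-128126553 on the minus strand, NDC80 at chr18:2571427-2571606 on the plus strand, CENPF at chr1:214603065-214603244 on the plus strand, NUF2 at chr1:163321824-163322003 on the plus strand, KIF20A at chr5:138178982-138179161 on the plus strand and ASPM at chr1:197146620-197146799 on the minus strand.
MKI67: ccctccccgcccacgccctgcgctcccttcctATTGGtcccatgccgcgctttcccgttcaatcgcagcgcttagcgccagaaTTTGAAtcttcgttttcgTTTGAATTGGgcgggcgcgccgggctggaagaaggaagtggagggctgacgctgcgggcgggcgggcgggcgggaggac
NDC80: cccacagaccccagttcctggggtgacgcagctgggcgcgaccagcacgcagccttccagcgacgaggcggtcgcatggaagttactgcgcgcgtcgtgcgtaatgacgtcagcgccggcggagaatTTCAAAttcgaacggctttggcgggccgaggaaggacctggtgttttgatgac
CENPF: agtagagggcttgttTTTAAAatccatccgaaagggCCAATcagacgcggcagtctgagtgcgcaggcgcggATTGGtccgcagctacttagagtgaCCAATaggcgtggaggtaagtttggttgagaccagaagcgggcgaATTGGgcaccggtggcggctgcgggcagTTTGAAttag
NUF2: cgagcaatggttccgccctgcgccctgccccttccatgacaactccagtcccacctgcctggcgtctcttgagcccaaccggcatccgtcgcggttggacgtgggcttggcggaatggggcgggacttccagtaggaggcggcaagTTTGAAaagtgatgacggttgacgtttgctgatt
KIF20A: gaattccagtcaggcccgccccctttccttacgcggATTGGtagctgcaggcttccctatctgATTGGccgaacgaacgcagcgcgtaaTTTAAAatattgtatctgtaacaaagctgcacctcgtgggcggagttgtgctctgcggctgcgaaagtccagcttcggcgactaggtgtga
ASPM: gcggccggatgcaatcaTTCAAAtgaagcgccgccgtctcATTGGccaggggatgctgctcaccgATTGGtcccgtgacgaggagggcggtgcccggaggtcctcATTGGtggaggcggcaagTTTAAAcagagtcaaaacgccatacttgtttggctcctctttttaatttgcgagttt
All 6 hold a CHR match, since that was the condition for showing them. In MKI67, CENPF, KIF20A and ASPM a CHR lies downstream of at least 1 CCAAT box, at -29, 40, -41 and -7, where positions are those of the first base of a match and the first base of the gene is 0. NDC80 and NUF2 hold a CHR at -3 and 16 and no CCAAT box in the whole promoter of the RefSeq table.

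In the RefSeq promoter table, which holds 250 bases before to 50 after the start, 45 of the 52 members had 58 promoters. AURKA, BIRC5, BUB3, FOXM1, TPX2, TTK and UBE2C were not matched. A CHR on either strand was found in 75.9% of the 58 promoters, beside 24.0% of all 35116 promoters of the table. Within 50 bases of the start the shares were 62.1% of the members' promoters and 7.62% of all. CCAAT was found in 69.0% and 34.6%, both motifs together in 56.9% and 9.27%, and the E2F core GCGGGAA in 12.1% of the members' promoters and 6.55% of all. By gene, 39 of 45 members had a CHR match, of which 29 fell (median log2 fold change -0.63). Of the 6 with neither TTTGAA nor TTTAAA (AURKB, BUB1, CCNA2, CKAP2, MYBL2 and NEK2) 4 fell, with a median of -0.53. No other letters were searched for the CHR, so these 6 may hold one in a form not looked for. A match of letters is a description of the sequence and does not show that a factor binds there.

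**Figure D3:**
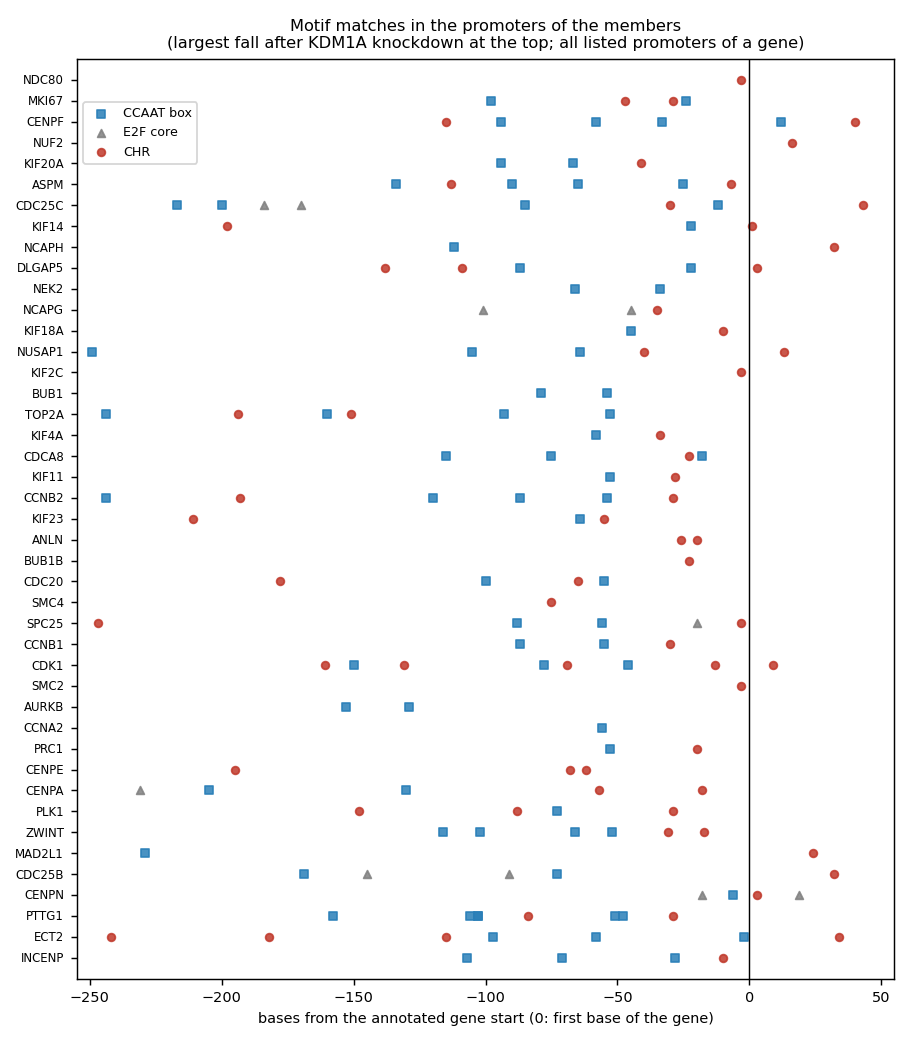
Positions of CHR (red circles), CCAAT (blue squares) and E2F core (grey triangles) matches in the promoters of the members (x axis: bases from the first base of the gene, which is 0), with genes ordered by log2 fold change, the largest fall at the top. Many CHR matches lie within 50 bases of the start. Genes with no match to any of the motifs, and genes for which no RefSeq promoter was found, are not drawn.

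Of the 7 mitotic kinases 5 fell (median log2 fold change -0.56), and CDK1 and PLK1 did not pass the test. NEK2, a kinase that separates the centrosomes, measured 9.17, 9.22 and 9.16 in siKDM1A cells and 9.98, 10.01 and 9.97 in control cells. Both groups were tight and 0.75 apart, and the log2 fold change was -0.80 ± 0.08 (SE, limma adjusted p = 0.00068). BUB1, a checkpoint kinase of the kinetochore, measured 8.54, 8.64 and 8.44 in siKDM1A cells and 9.18, 9.32 and 9.31 in control cells, a difference of -0.73 ± 0.09 (limma adjusted p = 0.0023). TTK, also called MPS1, which starts checkpoint signalling at unattached kinetochores, had log2 levels of 8.54, 8.74 and 8.52 in siKDM1A cells and 9.12, 9.31 and 9.36 in control cells. The groups did not overlap for either gene, and TTK fell by 0.66 (limma adjusted p = 0.0061). The Aurora kinases followed, with log2 fold changes of -0.56 for AURKA, which acts at spindle poles, and -0.49 for AURKB, which acts at centromeres and the midzone. CDK1, the kinase that drives entry into mitosis, had a log2 fold change of -0.49 that lay just outside the threshold (limma adjusted p = 0.0503). Its siKDM1A arrays at 10.28, 10.32 and 9.91 were all below its control arrays at 10.68, 10.73 and 10.56. PLK1, a kinase of mitotic entry and spindle assembly, had -0.32 (limma adjusted p = 0.15). Without siKDM1A c it had -0.42 (limma adjusted p = 0.043), and no other alternative called it. Without siKDM1A a or siKDM1A b the limma adjusted p was 0.3. AURKB did not pass when any single array other than siKDM1A c was left out (adjusted p in limma from 0.066 to 0.11).

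Of the 8 kinetochore and centromere genes 5 fell, with a median of -0.49, and the falls of NDC80, CENPF and NUF2 were the largest. NDC80, which with NUF2, SPC24 and SPC25 forms the complex that grips microtubules, measured 8.34, 8.42 and 8.16 in siKDM1A cells and 9.28, 9.24 and 9.32 in control cells. That is a gap of 0.82 between the nearest arrays and a log2 fold change of -0.98 ± 0.09 (SE, limma adjusted p = 0.0006). NUF2 measured 9.48, 9.50 and 9.12 in siKDM1A cells and 10.28, 10.28 and 10.34 in control cells, and fell by 0.93 (limma adjusted p = 0.002). Here siKDM1A c was the lowest array, and all 3 siKDM1A arrays stood below control. CENPF, a large protein of the outer kinetochore, measured 9.07, 8.98 and 9.02 in siKDM1A cells and 10.18, 9.84 and 9.87 in control cells, and fell by 0.94 (limma adjusted p = 0.0014). SPC25 fell by 0.55. CENPE, a kinetochore kinesin that brings chromosomes to the spindle equator, fell by 0.42 (limma adjusted p = 0.018), a call that was lost without any single control array (adjusted p from 0.056 to 0.094). CENPA, the histone H3 variant that marks centromeres, had -0.35 (limma adjusted p = 0.27) with overlapping groups, 7.21, 7.38 and 7.71 in siKDM1A cells against 7.62, 8.06 and 7.67 in control cells. CENPN, which binds CENPA nucleosomes, had -0.19 (limma adjusted p = 0.25), and ZWINT, which links checkpoint proteins to the outer kinetochore, -0.31 (adjusted p = 0.066).

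All 7 genes counted as kinesins fell, by 0.63 to 0.93 on the log2 scale (median -0.75). CENPE, also a kinesin, was counted with the kinetochore genes and fell by 0.42. KIF20A, also called MKLP2, which carries the chromosomal passenger complex to the central spindle, measured 9.44, 9.46 and 9.41 in siKDM1A cells and 10.31, 10.36 and 10.44 in control cells. With 0.85 between the nearest arrays this was the widest gap among the kinesins (log2 fold change -0.93 ± 0.08 SE, limma adjusted p = 0.00038). KIF14, a motor of cytokinesis, measured 8.90, 8.90 and 8.59 in siKDM1A cells and 9.74, 9.60 and 9.66 in control cells, and fell by 0.87 (limma adjusted p = 0.0022). KIF18A, which damps the movements of chromosomes at the spindle equator, measured 7.82, 7.81 and 7.35 in siKDM1A cells and 8.32, 8.49 and 8.51 in control cells, and fell by 0.78 (limma adjusted p = 0.01). For both, siKDM1A c was the lowest array and the groups did not overlap. The others were KIF2C, a microtubule depolymerase (-0.75), KIF4A, a chromosome-bound motor (-0.70), KIF11, also called Eg5, which pushes the spindle poles apart (-0.67), and KIF23, a subunit of centralspindlin (-0.63). KIF18A did not pass without control c (limma adjusted p = 0.055). By the methods' one-way ANOVA 3 of the 7 passed, KIF20A, KIF2C and KIF4A, whose siKDM1A arrays lay closest together.

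All 4 condensin genes fell, with a median of -0.68, and all 4 also passed the methods' one-way ANOVA. NCAPH, the kleisin that closes the condensin I ring, measured 7.91, 8.04 and 8.05 in siKDM1A cells and 8.71, 8.84 and 8.88 in control cells, a log2 fold change of -0.81 ± 0.09 (SE, limma adjusted p = 0.0012). NCAPG, another subunit found only in condensin I, measured 8.60, 8.79 and 8.54 in siKDM1A cells and 9.38, 9.46 and 9.46 in control cells, and fell by 0.79 (limma adjusted p = 0.0018). SMC4, one of the core ATPases that both condensins share, measured 10.49, 10.49 and 10.40 in siKDM1A cells and 11.10, 10.98 and 11.04 in control cells, and fell by 0.58 (limma adjusted p = 0.0044). In these 3 genes the groups were at least 0.49 apart. SMC2, the partner of SMC4, fell by 0.49 (limma adjusted p = 0.01), with 0.38 between the groups, and did not pass without control c (adjusted p = 0.062).

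Of the 5 cyclin and CDC25 genes 3 fell (median log2 fold change -0.55). CDC25C, a phosphatase that activates CDK1, measured 6.72, 6.79 and 6.73 in siKDM1A cells and 7.51, 7.74 and 7.63 in control cells. It fell by 0.88 (limma adjusted p = 0.0008). CCNB2 and CCNB1 encode the B-type cyclins, the partners of CDK1 in mitosis. CCNB2 measured 9.18, 9.29 and 9.36 in siKDM1A cells and 9.88, 9.98 and 9.92 in control cells, and fell by 0.65 (limma adjusted p = 0.0033). CCNB1 measured 10.90, 10.95 and 10.87 in siKDM1A cells and 11.40, 11.52 and 11.45 in control cells, and fell by 0.55 (limma adjusted p = 0.0052). None of these groups overlapped. CCNA2, the cyclin of S phase and early mitosis, had -0.48 (limma adjusted p = 0.064), with arrays more scattered in both groups. CDC25B, a phosphatase of the same family as CDC25C, had -0.20 (adjusted p = 0.41) and overlapping groups, its values being 10.81, 10.63 and 11.01 in siKDM1A cells and 11.17, 10.94 and 10.95 in control cells. The difference between CDC25C and CDC25B was not tested.

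Among the 6 genes counted under the spindle checkpoint and the anaphase-promoting complex 3 fell, with the smallest median of the 9 roles, -0.32. That median depends on the grouping, as the checkpoint kinases BUB1 and TTK, which fell by 0.73 and 0.66, were counted with the kinases. BUB1B, which encodes the checkpoint protein BUBR1, measured 9.65, 9.69 and 9.68 in siKDM1A cells and 10.29, 10.24 and 10.32 in control cells, a log2 fold change of -0.61 ± 0.08 (SE, limma adjusted p = 0.0028). CDC20, the activator of the anaphase-promoting complex that the checkpoint holds back, measured 10.79, 10.77 and 10.87 in siKDM1A cells and 11.34, 11.43 and 11.44 in control cells, and fell by 0.59 (limma adjusted p = 0.0038). UBE2C, the ubiquitin-conjugating enzyme of that complex, measured 11.63, 11.69 and 11.90 in siKDM1A cells and 12.17, 12.12 and 12.16 in control cells, and fell by 0.41 (limma adjusted p = 0.035). All 3 had siKDM1A arrays that were all below control, although siKDM1A c was closest to control for UBE2C. UBE2C did not pass when any array other than siKDM1A c was left out (adjusted p in limma from 0.094 to 0.14). The remaining genes had smaller differences, -0.23 for MAD2L1, the checkpoint protein that binds CDC20, -0.22 for BUB3, which brings BUB1 and BUBR1 to kinetochores, and -0.19 for PTTG1, which encodes securin (limma adjusted p = 0.30, 0.17 and 0.30). The PTTG1 probe set can also match its near-identical copies.

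Of the 3 chromosomal passenger genes, which with AURKB make the complex that corrects faulty attachments, CDCA8 and BIRC5 fell. CDCA8, which encodes borealin, measured 8.57, 8.68 and 8.88 in siKDM1A cells and 9.46, 9.39 and 9.29 in control cells, and fell by 0.67 (limma adjusted p = 0.0061). BIRC5, which encodes survivin, measured 10.08, 10.25 and 10.26 in siKDM1A cells and 10.59, 10.80 and 10.60 in control cells (limma adjusted p = 0.024). INCENP, the scaffold of the complex, measured 6.37, 6.33 and 6.44 in siKDM1A cells and 6.47, 6.65 and 6.57 in control cells, with -0.18 and a limma adjusted p of 0.31. For INCENP the nearest arrays of the groups were 0.03 apart, against 0.41 for CDCA8. INCENP was also the dimmest of the 52 genes in control cells, at a mean of 6.56. The BIRC5 call was lost when any array other than siKDM1A c was left out (adjusted p in limma from 0.05 to 0.10, all above the threshold).

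Of the 8 spindle and cytokinesis genes 7 fell, with a median of -0.69. ASPM, a spindle pole protein whose loss causes microcephaly, measured 9.12, 9.14 and 8.93 in siKDM1A cells and 10.11, 9.91 and 9.92 in control cells, a log2 fold change of -0.91 ± 0.10 (SE, limma adjusted p = 0.0011). TPX2, which activates AURKA on spindle microtubules, measured 10.32, 10.41 and 10.40 in siKDM1A cells and 11.34, 11.16 and 11.24 in control cells, and fell by 0.87 (limma adjusted p = 0.00074). DLGAP5, also called HURP, which stabilizes the fibres that end at kinetochores, measured 9.34, 9.42 and 9.29 in siKDM1A cells and 10.15, 10.13 and 10.18 in control cells, and fell by 0.81 (limma adjusted p = 0.0008). The groups were at least 0.71 apart for each of these. NUSAP1, a microtubule-bundling protein (-0.76), ANLN, which encodes the contractile ring protein anillin (-0.62), CKAP2, a spindle microtubule protein (-0.57), and PRC1, which bundles the midzone microtubules (-0.48), fell as well. PRC1 did not pass without siKDM1A a, siKDM1A b, control b or control c (limma adjusted p from 0.067 to 0.11). ECT2, the exchange factor that activates RhoA at the division plane, had -0.19 (limma adjusted p = 0.36), with 10.47, 10.53 and 10.23 in siKDM1A cells and 10.59, 10.60 and 10.61 in control cells.

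Of the 2 proliferation markers and 2 transcription factors, both markers fell. MKI67, which encodes the Ki-67 protein of the surface of mitotic chromosomes, measured 7.85, 7.95 and 7.69 in siKDM1A cells and 8.99, 8.75 and 8.71 in control cells. Its log2 fold change of -0.98 ± 0.11 (SE, limma adjusted p = 0.0012) is a level 49.4% lower. TOP2A, the topoisomerase that untangles sister chromatids, measured 10.49, 10.48 and 10.50 in siKDM1A cells and 11.27, 11.10 and 11.23 in control cells, and fell by 0.71 (limma adjusted p = 0.0019). FOXM1, a transcription factor of G2 and M phase genes, measured 9.15, 8.98 and 9.08 in siKDM1A cells and 9.74, 9.36 and 9.40 in control cells. All siKDM1A arrays were below control, with control a well above the other control arrays, and the log2 fold change was -0.43 (limma adjusted p = 0.061). MYBL2, which encodes B-Myb, a partner of the MuvB complex, had -0.40 (limma adjusted p = 0.061), and -0.48 (adjusted p = 0.044) without siKDM1A c. Of the fits with a single array left out, only that one called MYBL2.

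The choice of probe set mattered for some genes. Of the 104 probe sets 55 were lower, 0 were higher and 96 had negative differences. Over all 54613 probe sets 2037 were lower and 1193 higher. All 8 positive ones belonged to dimmer probe sets, 6 of them below the array median in control cells. A single probe set covered 25 genes. Of the 27 genes with several, all probe sets passed in 8 (AURKA, CENPF, KIF14, KIF2C, NCAPG, SMC2, CCNB1 and MKI67), none passed in 4 (CDK1, CENPN, BUB3 and ECT2), and the calls differed in 15. For CCNA2 and MAD2L1 a dimmer probe set was called while the brightest was not. The dimmer CCNA2 probe set measured 8.21, 8.37 and 8.30 in siKDM1A cells and 8.79, 9.03 and 8.94 in control cells, or -0.63 on the log2 scale (adjusted p = 0.005 in limma). For MAD2L1 it measured 5.35, 5.61 and 5.44 in siKDM1A cells and 6.10, 6.20 and 6.24 in control cells, or -0.71 (limma adjusted p = 0.003), whereas another had -0.11. Both of the called probe sets separate the groups fully.

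In the other genes with differing calls the brightest probe set was called and at least 1 dimmer one was not. The uncalled ones of BUB1 had differences of 0.24, -0.23, -0.26 and 0.07, those of CCNB2 0.04 and 0.03, and that of AURKB -0.07. These lay far below the brightest probe set of the same gene, and the BUB1 ones had control means of 2.42 to 4.76. Among the remaining genes, the uncalled probe sets had -0.58 for NEK2, -0.54 for KIF23, -0.27 for SMC4, -0.43 for ANLN, -0.32 and -0.33 for BIRC5, -0.66 and 0.11 for CDC25C, and -0.62 and 0.21 for CKAP2. Of the genes with no call, CDK1 had dimmer probe sets at -0.60 to -0.34, CENPN at -0.42 to -0.07, BUB3 at -0.33 to 0.09 and ECT2 at -0.05 and 0.13. On 3 probe sets siKDM1A c alone was far down. For TOP2A this probe set measured 10.46, 10.41 and 8.72 in siKDM1A cells and 10.49, 10.80 and 10.93 in control cells. For NUSAP1 it measured 8.21, 8.08 and 6.99 in siKDM1A cells and 8.14, 8.39 and 8.58 in control cells. The third, of ASPM, measured 5.30, 5.26 and 3.56 in siKDM1A cells and 5.14, 5.38 and 5.57 in control cells. On the brightest probe sets of the same genes siKDM1A c was close to the other siKDM1A arrays, at 10.50 for TOP2A, 10.31 for NUSAP1 and 8.93 for ASPM. What sets these probe sets apart was not tested. CENPA, FOXM1 and PTTG1 rest on a single probe set whose probes can match other transcripts.

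A further 4 lists were set beside the 52 genes, with none of the differences between lists tested. Of 70 other measured mitosis genes 51 fell, 0 were higher and 19 did not pass, with a median log2 fold change of -0.52. The largest falls were those of GTSE1, a microtubule-associated protein of G2 and M phase (-1.13), the kinesins KIF15 (-1.09) and KIF22 (-0.96), and the condensin I subunit NCAPD2 (-1.02), with limma adjusted p from 0.00023 to 0.0011. SPC24, the remaining subunit of the NDC80 complex, fell by 0.81 and was picked with its value in view, to complete that complex.

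Of 15 measured subunits and cofactors of the anaphase-promoting complex limma called 0 lower and 0 higher, with a median of -0.03 and a range of -0.26 to 0.25. At an unadjusted limma p under 0.05 there were 2 lower and 1 higher, beside 2850 lower and 1928 higher of all 19775 genes. The methods' one-way ANOVA with adjustment called 0. By comparison CDC20 and UBE2C, which work with the complex, both fell as given above. Of 44 DNA replication genes 28 fell, 0 were higher and 16 did not pass, with a median of -0.50, so lower levels were measured for genes of S phase too. MCM5, a subunit of the replicative helicase, fell by 0.93, its loading and activating partners MCM10 and CDT1 by 0.89 and 0.75, and the primase subunit PRIM2 by 0.72 (limma adjusted p from 0.00078 to 0.012). Of 12 genes listed for the DREAM complex, which binds CHR sites, 3 fell and 1 rose, with a median of -0.22. The list counts DYRK1A, a kinase that acts on the complex and is not a subunit. LIN37, RBL1 (p107) and RBBP4 fell by 0.52, 0.47 and 0.45, and the repressive E2F factor E2F5 rose by 0.66 (limma adjusted p from 0.0079 to 0.039). LIN54, which contacts the CHR, had -0.39 (limma adjusted p = 0.11).

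**Figure D4:**
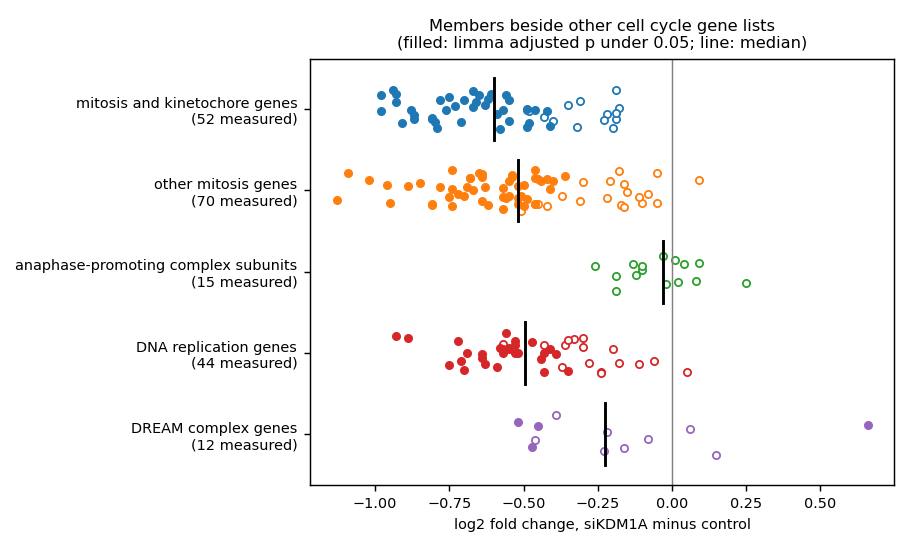
Log2 fold change (siKDM1A minus control, x axis) of every measured gene of 5 lists, 1 row per list with points spread at random for display, filled where the limma adjusted p is under 0.05 and with a black line at the median. The medians are -0.60 for the 52 mitosis and kinetochore genes, -0.52 for other mitosis genes, -0.03 for subunits of the anaphase-promoting complex, -0.50 for DNA replication genes and -0.22 for DREAM complex genes.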

How the data were processed

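RMA, run by the authors in Partek (version not given in the sources used here), turned the scans of 6 Affymetrix U133 Plus 2.0 arrays into the deposited log2 values of 54675 probe sets. RMA forces 1 intensity distribution on all arrays, which takes out most of any shift that the majority of genes share. Scanner files were not used here. After 62 Affymetrix controls were left out, the log2 values of 54613 probe sets were tested with limma 3.58.1 under R 4.3.3 (lmFit, eBayes, two-sided), with Benjamini-Hochberg adjustment over all of them and a threshold of 0.05. No filter on low values was applied, and the 3 arrays per group limit the precision. The platform annotation named 1 gene for 41091 probe sets. Each gene was represented by its brightest probe set on average.

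The 52 members and the further lists were chosen with earlier results of these data known, and the arrays are those of the whole series. Values on every array were given for the 3 genes of each role with the largest absolute log2 fold change, other probe sets for genes whose calls differ, and at most 4 called genes of each further list. Genes outside this rule were picked with their values in view. Promoters were read from RefSeq (GRCh38.p14) by gene symbol. The test was checked on simulated data, with a pass condition set only for changes larger than those of the members. The alternatives left out each array in turn or the dim probe sets, centred arrays on the median, applied cyclic loess, used a robust prior with an intensity trend, blocked on replicate letter, replaced limma by the methods' one-way ANOVA, or changed the threshold or the probe set rule.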

Additional observations from a re-analysis of the deposited data

How the results depend on the processing

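No direction reversed under any alternative run, and 0 members were called higher in all of them. Of the 52 genes, 42 were lower after median centring and 38 after cyclic loess. With dim probe sets filtered out 43 were lower, and 44 with an intensity trend and robust prior. Over the whole array 2443, 1675, 2491 (of 27306) and 2551 probe sets were then lower, against 2037 of 54613 in the main fit. Without probe sets that can match other transcripts 39 of 49 measured members were lower, beside 1920 of 50406 probe sets. When all probe sets of a gene were averaged 40 were lower, beside 1206 of 19775 genes. At an adjusted p under 0.01 and under 0.1 there were 30 and 43, beside 657 and 3085 probe sets. With 1 array left out 31 to 40 were lower, beside 694 to 1563 probe sets. By the methods' one-way ANOVA 22 were lower, with 3 of the kinases, 3 of the kinetochore genes and 3 of the kinesins, and it called 401 probe sets lower over the whole array, against 2037 with limma. The ANOVA estimates each gene's spread from its own 6 arrays alone. The median log2 fold change of the members was -0.63 after centring, -0.56 after cyclic loess, -0.55 with the mean of all probe sets, and -0.63 to -0.58 with 1 array left out. The cause of these shifts was not tested. With the mean of all probe sets AURKB, BUB1, CCNB2 and CKAP2 lost their call. Called with each array left out were 31 of the 38 genes, and 18 were called under every alternative that measured them. With the replicate letters as a block (replicate block) 39 were lower, beside 1639 probe sets over the whole array. Of the 39, 37 were shared with the fit without the block, and UBE2C was lost (limma adjusted p = 0.058). Deviations of arrays of the same letter had correlations of 0.11, 0.23 and -0.13 over probe sets, and those of different letters -0.32 to 0.18. The b arrays had the highest value and the c arrays a negative one. The letters were not taken as pairs. The p-values measure the spread between these transfections of 1 cell line.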

Other observations

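Leaving out each array moved the calls of the mitosis genes unevenly. The fewest calls, 31, came without control c, and the most, 40, without siKDM1A c. Over all probe sets the number called lower was 694 without control c and 1563 without siKDM1A c, against 2037 with every array. Over all probe sets control a lay more than 1 log2 unit below both other control arrays on 16 probe sets, and control b and control c on 0.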
